A study of Mus musculus with 31 samples.

Results

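The comparison asked whether a disturbance of early mothering left a different mark on gene expression in the nucleus accumbens (NAc) than in the medial prefrontal cortex (mPFC) of adult DBA mice. For every gene, the difference between repeatedly cross-fostered (RCF) and control mice in the NAc was set against the same difference in the mPFC. The resulting value, called the region difference here, is the NAc response minus the mPFC response on the log2 scale, so it is above 0 where RCF samples stood higher, relative to controls, in the NAc than in the mPFC. Members were chosen by sample title: the 16 DBA arrays of the 31 arrays of the series, with 4 arrays for each of the groups NAc RCF, NAc control, mPFC RCF and mPFC control. In the mPFC, RCF arrays 1 and 3 and control arrays 2 and 4 were near-duplicates and were averaged, which left 14 samples: 4 NAc RCF, 4 NAc control, 3 mPFC RCF and 3 mPFC control.

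The labels give all 16 samples as females of the inbred strain DBA2/J, with no transgene named, aged 12 weeks, and the protocol gives an age of 9 to 12 weeks. Some markers of 2 control samples, described below, went against these labels. RCF litters were handed to a new dam on each of postnatal days 1 to 4 and stayed with the last of these 4 adoptive mothers. Control litters were lifted out daily and given back to their own dam. All animals were weaned on day 28, and no more than 2 per cage or litter were taken. The series also holds C57BL/6J mice, and Xlr4 and cocaine are the subjects of its title. Each label speaks of tissue from a mouse, but none says whether the NAc and mPFC samples came from the same mice, so p-values measure the spread between these samples.

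The NAc, in the ventral striatum, consists mainly of GABAergic projection neurons that respond to dopamine and glutamate, and it takes part in reward and motivation. The mPFC is layered cortex whose glutamatergic pyramidal neurons project to the NAc among other targets. Both regions receive dopamine from the midbrain, and early maternal care is known to shape stress and reward circuits in rodents. RCF is used as a model of unstable attachment, in which pups are fed and warmed normally but lose the odour and behaviour of 1 constant caregiver.

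Values are log2 signal of single-colour arrays, and every array had the same 75th percentile, 11.4303. Between 68.9% and 81.9% of probes were well above background on the DBA arrays, and the number of arrays limits the precision. The scanner file equal to a sample's column is listed with another sample for all 16 DBA samples, and samples were taken by column title. Samples DBA mPFC control 1 and DBA NAc control 4 went against their labels in strain markers, NAc control 4 in fewer of them. Glo1, which this strain is known to express strongly, was 12.66 and 12.73 on these arrays, against 13.6 to 14.24 on the other 14. Gpnmb, which carries an inactivating mutation in DBA mice, was -3.25 and -4.46 relative to the 75th percentile on them, against -8.92 to -7.46 on the others. Gabra2, like Glo1 listed as higher in DBA mice, was lower on mPFC control 1 than on any of the other 14 arrays. On NAc control 4 Gabra2 was 12.06, within the 11.79 to 13.01 of those 14 arrays, so it did not go against that label. Xist, expressed from the inactive X of females, was 3.70 on mPFC control 1, against 9.64 or more on each other DBA array. Region differences of genes and gene lists are therefore given with and without these 2 control samples, except in the comparison of the strains. Each region lay on its own slide, so an additive slide effect cancels in the region difference. All mPFC RCF arrays lay in slide columns 3 and 4 and all mPFC control arrays in columns 1 and 2, so slide column and treatment cannot be told apart in the mPFC. The NAc arrays lay in the same way except for control 4, in column 4, and RCF 3, in column 2. Column and treatment thus largely coincided in the NAc too.

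No gene passed the test of the region difference. Limma called 0 of 25536 features (0.0%) at an adjusted p under 0.05, and its smallest adjusted p was 1.0. At an unadjusted p under 0.05 there were 252 features (0.987%), 147 above 0 (0.576%) and 105 below 0 (0.411%). In simulated normal data, 4.75% of features with no added difference reached such a p, so the count of 252 was below that share. The simulated features were independent of each other, which the real ones are not, so nothing more is read from this. With the 2 control samples left out, limma again called 0 features, with 206 (0.807%) at an unadjusted p under 0.05. Of the 252, all 252 kept their sign without these samples and 83 kept an unadjusted p under 0.05. The share of features above 0 was 47.0% over the whole array and 47.5% without the 2 control samples, and the median region difference was -0.01. The standard error of the region difference had a median of 0.255 over features. Of all features, 93 lay above 1 and 35 below -1, against 52 and 44 without the 2 control samples.

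Neither region had a called response of its own. Limma called 0 features in the NAc (0.0%), with 371 at an unadjusted p under 0.05 (1.45%), and 0 in the mPFC (0.0%), with 473 (1.85%). When the 2 control samples were left out, there were again 0 called, with 317 (1.24%) in the NAc and 475 (1.86%) in the mPFC. Across features, which are not independent replicates, the NAc and mPFC responses had a Pearson r of 0.275 and a Spearman rho of 0.244, with no sample shared between them. With both doubtful controls left out, r was 0.277. Among the 252 features at an unadjusted p under 0.05, the sign of the response was opposite in the 2 regions for 233, and the mPFC response was the larger in size for 178. The choice of features by their region difference favours opposite signs, so these counts only describe them.

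The genes with the smallest p and a region difference above 0 were led by Ceacam2, a cell adhesion molecule of the carcinoembryonic antigen family. Ceacam2 was 7.34, 7.71, 7.64 and 8.15 in NAc RCF samples 1 to 4, against 7.43, 7.53, 7.25 and 7.23 in NAc controls 1 to 4. In the mPFC it was 6.57, 5.98 and 6.75 in RCF samples 1+3, 2 and 4, against 7.65, 7.15 and 7.42 in controls 1, 2+4 and 3. All mPFC RCF samples lay below all mPFC controls, while the NAc groups overlapped with the RCF samples mostly higher. The Ceacam2 response was 0.35 ± 0.20 (SE) in the NAc and -0.97 ± 0.23 in the mPFC, a region difference of 1.32 ± 0.31 with a 95% interval of 0.66 to 1.98. Its unadjusted p was 0.000753 and limma's adjusted p was 1.0. In the fit that left out the 2 control samples, the difference was 1.16 (unadjusted p = 0.00537 in limma), and it ranged from 1.09 to 1.48 when each sample was left out in turn. With another background correction, normexp, it was 0.95.

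Cd93 encodes a receptor on the surface of endothelial cells. It was 9.67, 10.05, 9.9 and 10.06 in NAc RCF samples, against 9.71, 9.69, 9.53 and 9.61 in NAc controls. Cd93 in the mPFC was 9.42, 9.15 and 9.77 in RCF samples, against 10.15, 9.56 and 9.91 in controls. The groups overlapped in both regions, with most RCF samples high in the NAc and low in the mPFC. The region difference of Cd93 was 0.71 ± 0.24, and 0.57 without the 2 control samples.

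Keap1, the adaptor that marks the antioxidant transcription factor Nfe2l2 for breakdown, differed in the mPFC values alone. It was 12.24, 12.46, 12.43 and 12.65 in NAc RCF samples, against 12.38, 12.47, 12.41 and 12.53 in NAc controls. Keap1 in the mPFC was 11.62, 11.4 and 11.7 in RCF samples, against 12.08, 12.01 and 11.96 in controls. The NAc groups overlapped throughout, and the mPFC groups did not overlap. Keap1 thus had a region difference of 0.44 ± 0.15, and 0.44 without the 2 control samples.

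Hmgn5, an X-linked protein that binds nucleosomes and loosens chromatin, was 10.06, 9.5, 10.03 and 9.82 in NAc RCF samples, against 9.88, 9.61, 9.32 and 9.86 in NAc controls. In the mPFC Hmgn5 was 8.84, 8.64 and 8.91 in RCF samples, against 9.17, 9.27 and 9.45 in controls. Again only the mPFC groups were apart, with RCF lower. The region difference of Hmgn5 was 0.68 ± 0.24, and 0.81 without the 2 control samples. It was the only 1 of 8 measured nucleosome-binding HMG proteins at an unadjusted p under 0.05, and the median of these 8 was -0.02, or 0.03 without the 2 control samples.

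Of the other 8 genes, the chemokine gene Ccl5 had a region difference of 0.98 ± 0.34 (0.87 without the 2 control samples), with responses of 0.38 in the NAc and -0.60 in the mPFC. Casp4, an inflammatory caspase that senses bacterial lipopolysaccharide, had one of 0.88 ± 0.30 (0.68 without them). The amino acid transporter gene Slc38a5 had 0.70 ± 0.24 (0.78 without them), and the orphan receptor gene Gpr160 had 0.66 ± 0.21 (0.58 without them). The smaller values belonged to the co-chaperone Sgtb (0.49 ± 0.18), the transcription and splicing factor Htatsf1 (0.48 ± 0.18), carboxypeptidase D, encoded by Cpd (0.42 ± 0.16), and the ubiquitin ligase Pja2 (0.38 ± 0.14). Limma's adjusted p was 1.0 for each, and without the 2 control samples all 12 stayed above 0, between 0.38 and 1.16. Ccl5, Casp4 and Gpr160 were dim, with group means of 5.26 to 6.55. With normexp their region differences were 0.48, 0.46 and 0.29.

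Below 0, Dact2 had the most negative value of the 12 genes with the smallest p. Its product restrains Wnt and Nodal signalling. Dact2 was 9.45, 8.96, 8.95 and 8.44 in NAc RCF samples, against 8.87, 8.98, 9.25 and 10.02 in NAc controls. Dact2 in the mPFC was 10.43, 10.1 and 9.95 in RCF samples, against 8.01, 9.57 and 9.47 in controls. The mPFC RCF samples lay above all mPFC controls, and the NAc groups overlapped. The lowest mPFC control and the highest NAc control were the 2 samples that went against their labels. The region difference of Dact2 was -1.48 ± 0.51 with these samples and -0.73 without them.

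Eif2s3x, the X-linked gene of a translation initiation factor subunit that escapes X inactivation, was 9.8, 9.91, 10.28 and 9.74 in NAc RCF samples, against 10.24, 10.07, 9.99 and 10.08 in NAc controls. In the mPFC Eif2s3x was 10.44, 10.85 and 10.49 in RCF samples, against 9.63, 10.31 and 10.04 in controls. Only in the mPFC were the groups apart, and its lowest control was the sample with low Xist. The region difference of Eif2s3x was -0.76 ± 0.24, and -0.59 without the 2 control samples. What the sex chromosomes of that sample contribute to it was not tested beyond leaving the sample out.

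Snd1, a nuclease-domain protein of RNA silencing and splicing complexes, was 9.23, 9.31, 9.35 and 8.51 in NAc RCF samples, against 9.59, 9.46, 9.39 and 9.54 in NAc controls. In the mPFC Snd1 lay between 9.84 and 10.1 in the 3 RCF samples, against 9.56, 9.81 and 9.47 in controls. The groups were apart in both regions and in opposite directions, by narrow margins. For Snd1 the region difference was -0.76 ± 0.26, and -0.72 without the 2 control samples.

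Hyou1, a chaperone of the endoplasmic reticulum induced by low oxygen, was 7.16, 7.35, 7.64 and 6.11 in NAc RCF samples, against 7.85, 7.57, 7.62 and 7.48 in NAc controls. In the mPFC Hyou1 was 7.76, 8.16 and 8.38 in RCF samples, against 6.81, 7.82 and 7.81 in controls. The groups overlapped in both regions, with NAc RCF 4 and mPFC control 1 as the low samples. Its region difference was -1.18 ± 0.46, and -0.89 without the 2 control samples.

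Among the remaining 8 genes below 0, Maml2, a coactivator of Notch, had a region difference of -0.98 ± 0.38, Hif3a, a subunit of hypoxia-inducible factors, one of -0.87 ± 0.32, and Ezhip, an X-linked inhibitor of Polycomb methylation, one of -0.69 ± 0.25. Without the 2 control samples these were -0.90, -0.85 and -0.47. Maml2 and Ezhip were dim, with group means of 6.19 to 7.08 and of 6.02 to 6.77. For Ezhip the NAc held most of the difference, with a response of -0.53 in the NAc and 0.16 in the mPFC, and every NAc RCF sample was below every NAc control. Tubulin acetyltransferase Atat1 (-0.55 ± 0.20), the endosomal protein Relch (-0.51 ± 0.18), the Integrator subunit Ints8 (-0.51 ± 0.20), the Golgi protein Tm9sf3 (-0.43 ± 0.16) and the small GTPase Arf5 (-0.39 ± 0.14) were closer to 0. Limma's adjusted p was 1.0 for each of these 12 genes, and all stayed below 0 without the 2 control samples, between -0.90 and -0.30.

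Across these 24 genes the mPFC groups were the ones set apart. In the NAc none of the 12 above 0 (0.258% of all features, RCF higher) and 2 of the 12 below 0 (0.302%, RCF lower) had groups apart. For 10 of the 12 genes above 0 every mPFC RCF sample was lower than every mPFC control, against 6.06% of all features, and for 9 of the 12 below 0 every one was higher, against 5.19%. The genes were picked by a value that contains these responses, so nothing is read from the counts.

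**Figure D1:**
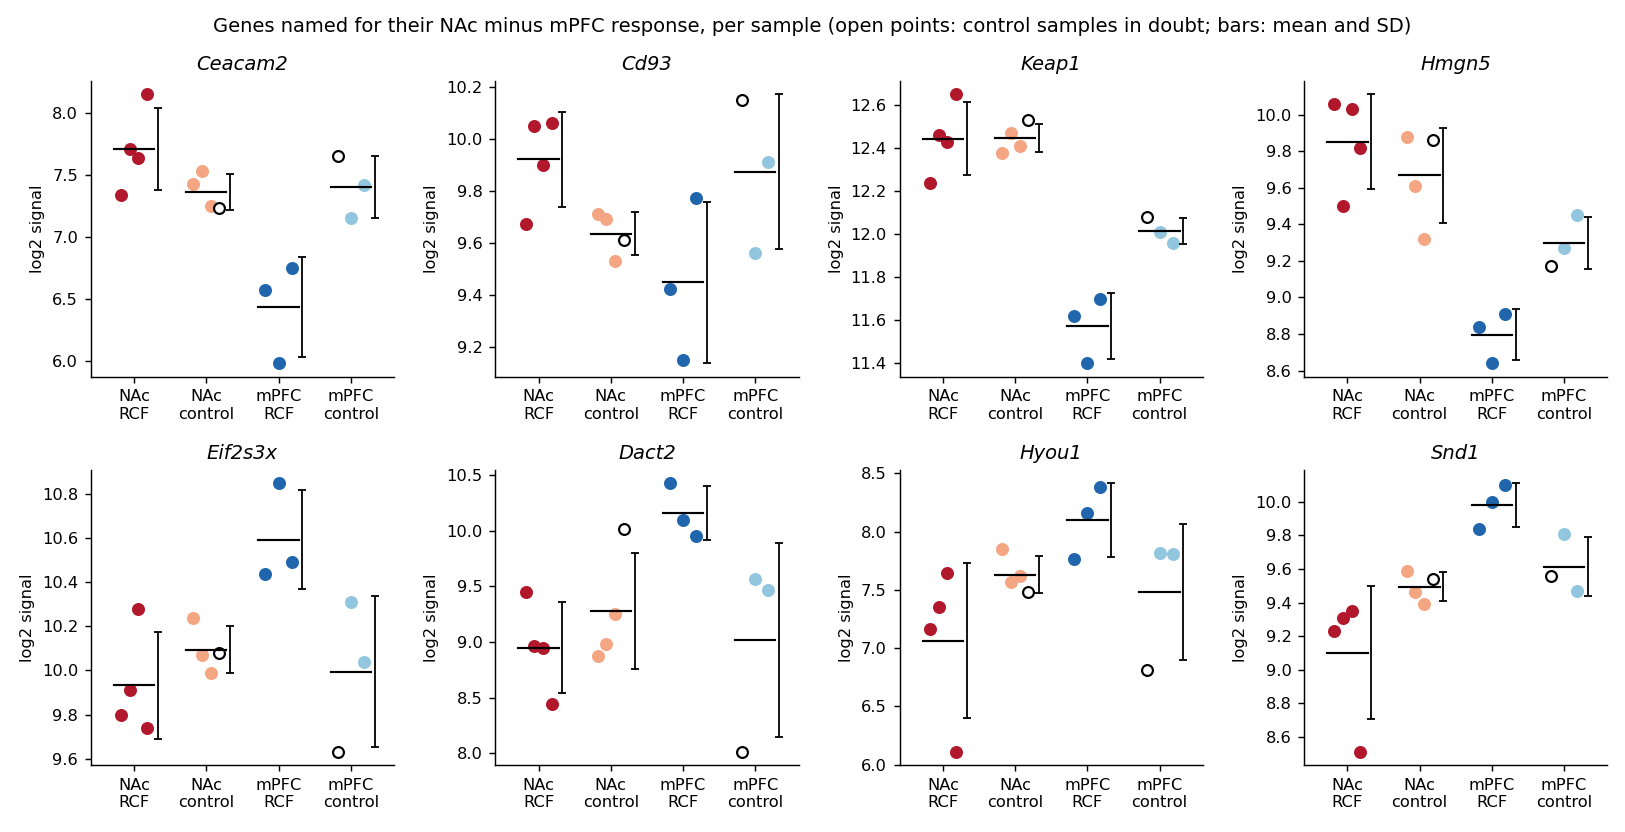
Log2 signal (vertical axis) of 8 of the named genes in NAc RCF, NAc control, mPFC RCF and mPFC control samples. Points are samples, and lines and bars are means and SD. Open points are DBA NAc control 4 and mPFC control 1, which have markers that go against their labels. For Ceacam2, Keap1 and Hmgn5 the 3 mPFC RCF samples lie below the 3 mPFC controls, and for Eif2s3x, Dact2 and Snd1 above them.

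**Figure D2:**
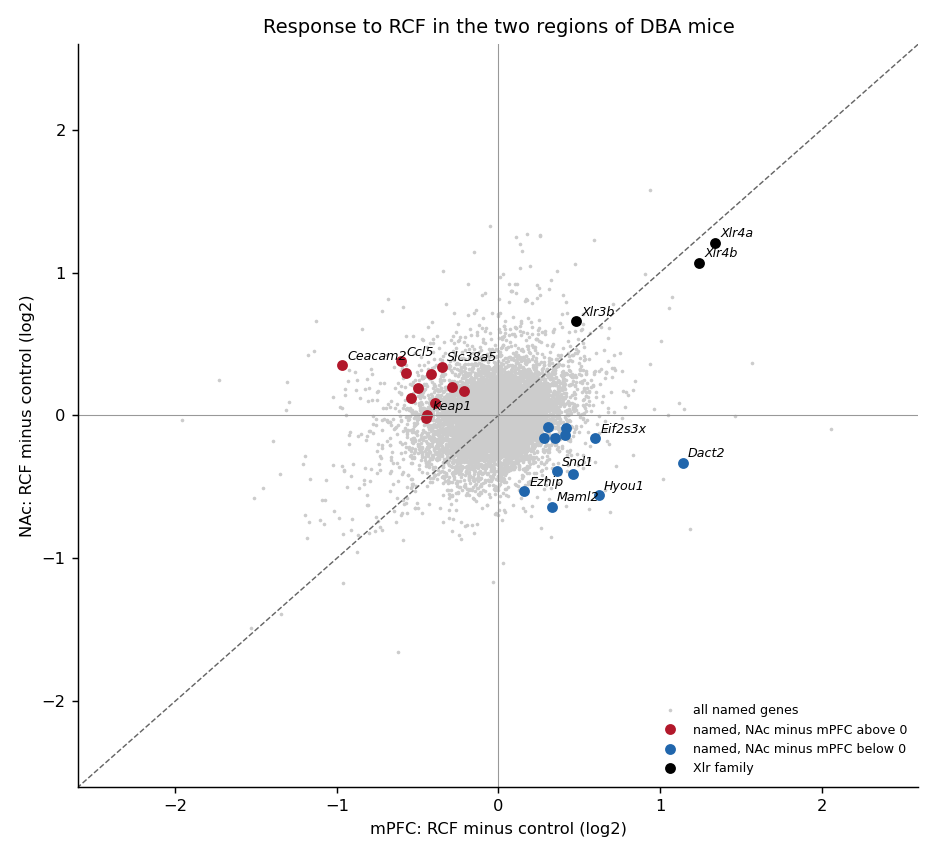
RCF minus control (log2) of each named gene in the NAc (vertical axis) against the mPFC (horizontal axis), with the dashed line marking equal responses. The 12 red and 12 blue points are the genes with the smallest p of the region difference above and below 0, with Ceacam2 at 0.35 in the NAc and -0.97 in the mPFC; the 3 black Xlr genes lie near the dashed line.

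With the 2 control samples left out, the order of the genes by p differed. Above 0, Htatsf1 came first with a region difference of 0.61 (unadjusted p = 0.0009 in limma, adjusted p = 1.0). Htatsf1 was 12.66, 12.55, 12.61 and 12.73 in NAc RCF samples, against 12.38, 12.46 and 12.42 in NAc controls 1 to 3 and 12.92 in NAc control 4. In the mPFC Htatsf1 was 11.88, 11.63 and 11.68 in RCF samples, against 12.1, 12.18 and 12.08 in controls. Without NAc control 4, RCF samples were thus above all controls in the NAc and below them in the mPFC. Ino80b, a subunit of a chromatin remodelling complex, followed with 0.91 without the 2 samples and 0.65 ± 0.26 with them, and Ceacam2 came after it.

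The other genes above 0 without those samples were Stau2, which carries messenger RNA into dendrites (0.53, against 0.36 with all samples), the zinc finger gene Zfp62 (0.53, against 0.42) and the chemokine receptor gene Ccr10 (0.85, against 0.66). Below 0, Cbln4, a secreted organiser of synapses, led with -1.10, against -0.73 ± 0.35 with all samples. Relch, described above, was again among the 6 genes with the smallest p. The matrix protein Ltbp2 (-1.19, against -0.86) and the bone morphogenetic protein antagonist Grem1 (-1.59, against -1.05) were also below 0. Limma's adjusted p was 1.0 for each of these genes in both fits. Ccr10 and Ltbp2 were dim, with group means of 5.65 to 6.42 and of 5.94 to 6.62. Grem1 was dim in the mPFC controls, with a mean of 5.64.

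Most measured genes of the blood vessel wall and its surroundings had region differences above 0. Genes of a list come from the same samples and can move together, so counts of members, here and below, are not independent evidence. All 10 measured fibroblast genes lay above 0, with a median of 1.00, against a median of -0.01 and 47.0% above 0 over all features. All 12 genes of pericytes and vascular smooth muscle also lay above 0, with a median of 0.50, and 17 of 20 endothelial genes did, with a median of 0.20. At an unadjusted p under 0.05 there were 0 of 10, 0 of 12 and 3 of 20, against 0.987% of all features, and limma called none at an adjusted p under 0.05. Leaving out those 2 control samples gave medians of 0.70, 0.33 and 0.08, with 9, 10 and 15 members above 0 and 1 endothelial gene, Cd93, at an unadjusted p under 0.05. Blood markers had a median of 0.03 with 4 of 6 above 0, and of -0.52 with 0 of 6 above 0 without those samples. In whole tissue, fewer cells of a type and less RNA per cell cannot be told apart.

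Among fibroblast genes, the collagen gene Col1a1 was 7.94, 8.48, 7.16 and 9.45 in NAc RCF samples, against 8.67, 7.14, 7.76 and 7.76 in NAc controls. In the mPFC Col1a1 was 7.76, 7.1 and 8.88 in RCF samples, against 8.79, 8.37 and 10.11 in controls. Groups overlapped in each region. Col1a1 had a region difference of 1.60 ± 0.79, and 1.72 without the 2 control samples. The other 3 fibroblast genes with the smallest p were the transporter gene Slc6a13 (1.35 ± 0.93), Dcn, which encodes a proteoglycan that binds collagen (1.09 ± 0.73), and the collagen gene Col1a2 (0.99 ± 0.65). When the 2 control samples were left out, Slc6a13 had 0.74, Dcn 0.72 and Col1a2 0.86.

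The mean log2 signal of the 10 fibroblast genes was 9.83, 10.09, 8.95 and 10.96 in NAc RCF samples, against 10.54, 8.86, 9.88 and 9.17 in NAc controls. In the mPFC it was 9.31, 8.79 and 10.26 in RCF samples, against 10.32, 9.4 and 10.38 in controls. Samples of 1 group thus differed widely, and the groups overlapped in both regions. Acta2, the actin of smooth muscle, had a region difference of 1.04 ± 0.60, and its partners of the contractile apparatus Myh11 (0.68 ± 0.47), Myl9 (0.64 ± 0.34) and Smtn (0.44 ± 0.23) had smaller ones. With both doubtful controls left out, these values were 0.93, 0.65, 0.38 and 0.36, and without mPFC RCF 2 alone Acta2 had 0.52, Myh11 0.40 and Myl9 0.43. With all samples, for all 4 the mPFC held nearly the whole difference, with responses of 0.06, -0.11, 0.05 and -0.10 in the NAc and of -0.98, -0.79, -0.59 and -0.54 in the mPFC. The amount of meningeal tissue taken in dissection was not measured, and its part in these values was not tested.

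Cldn5, a tight junction protein of the blood-brain barrier, was 12.03, 11.81, 11.99 and 12.35 in NAc RCF samples, against 11.77, 11.89, 11.55 and 11.18 in NAc controls. In the mPFC Cldn5 was 11.64, 11.54 and 12.17 in RCF samples, against 12.32, 11.86 and 11.98 in controls. Both regions had overlapping groups. The Cldn5 region difference was 0.72 ± 0.28 (unadjusted p = 0.022 in limma), and 0.45 without the 2 control samples (unadjusted p = 0.11), the lowest NAc and the highest mPFC control being those 2. Flt1, a receptor for vascular endothelial growth factor, had 0.43 ± 0.18 with them and 0.35 without them. Vwf, the clotting factor stored in endothelial cells, had 1.14 ± 0.68 with them and 0.59 without them.

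Of 16 microglial genes 14 lay above 0, with a median of 0.11. Cx3cr1, the fractalkine receptor by which microglia sense neurons, was 11.92, 12.05, 12.26 and 12.16 in NAc RCF samples, against 11.83, 12.31, 12.0 and 12.2 in NAc controls. In the mPFC Cx3cr1 was 12.03, 12.15 and 12.03 in RCF samples, against 12.53, 12.36 and 12.81 in controls. Only the mPFC groups were apart. Its region difference was 0.51 ± 0.19, and 0.56 without the 2 control samples, the only 1 of the 16 at an unadjusted p under 0.05 in both fits. Without them 10 of 16 members were above 0, with a median of 0.04. Laptm5, Aif1 and Itgam, also expressed by microglia, had 0.43 ± 0.28, 0.26 ± 0.25 and 0.22 ± 0.19, and 0.38, 0.13 and 0.23 without the 2 control samples.

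**Figure D3:**
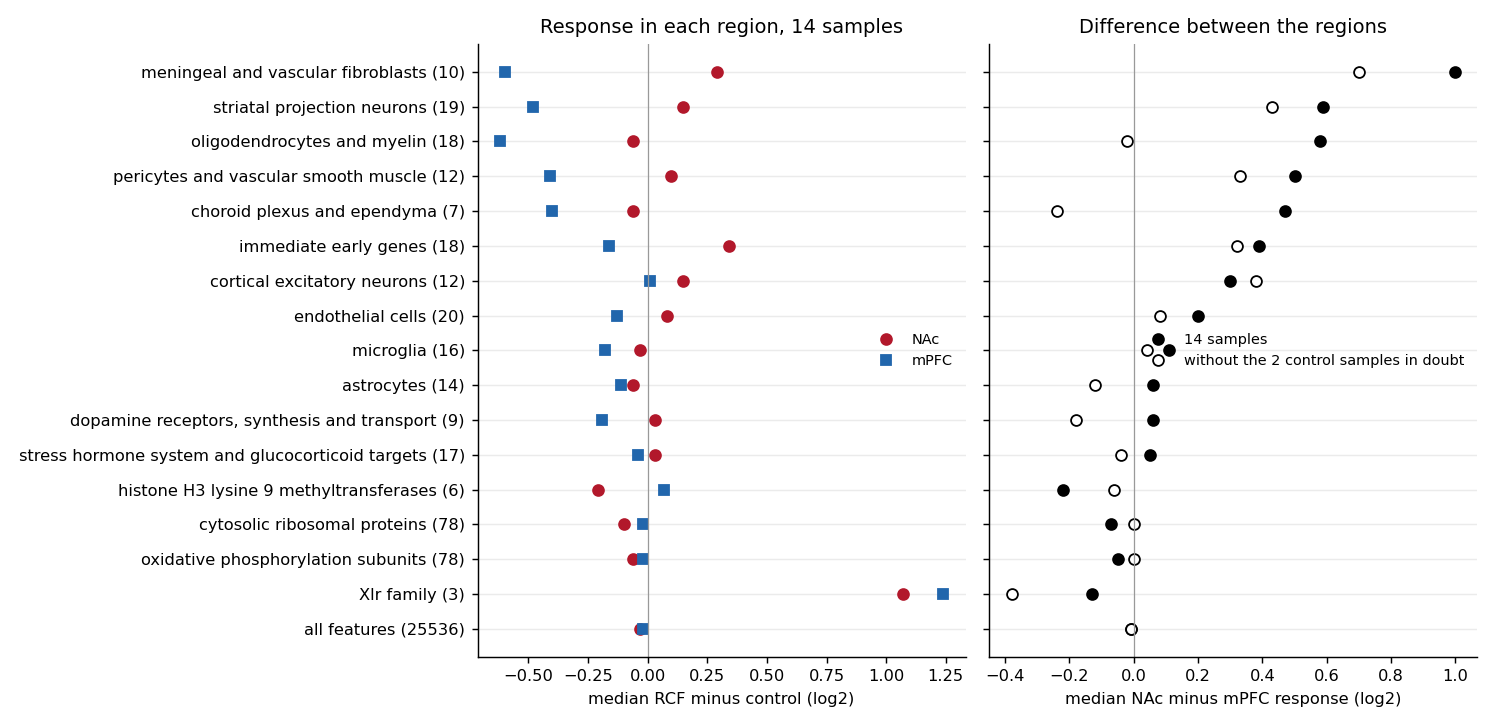
Median over each gene list of the RCF minus control response in the NAc and mPFC (left) and of the NAc minus mPFC response (right), all in log2, with the number of measured genes in brackets. Filled points on the right use 14 samples and open points leave out the 2 control samples that go against their labels: the fibroblast median is 1.00 with and 0.70 without them, and the oligodendrocyte median 0.58 with and -0.02 without.

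Oligodendrocyte genes had values above 0 that rested on 1 sample. With all samples, 17 of 18 lay above 0, with a median of 0.58, and none was at an unadjusted p under 0.05. Leaving out both control samples gave 8 of 18 above 0 and a median of -0.02, and leaving out mPFC control 1 alone gave a median of 0.03. The mean log2 signal of the 18 genes was 12.52, 12.16, 12.81 and 12.02 in NAc RCF samples, against 12.62, 12.46, 12.18 and 12.49 in NAc controls. For the mPFC it was 11.53, 10.86 and 11.15 in RCF samples, against 12.65, 11.48 and 11.03 in controls 1, 2+4 and 3. mPFC control 1 stood at the level of the NAc samples, and the other mPFC samples overlapped. The list of choroid plexus and ependyma had a median of 0.47 over 7 genes and one of -0.24 without the 2 control samples. Its mean log2 signal was 6.41 to 7.37 in the mPFC RCF samples, against 8.60, 6.47 and 6.55 in mPFC controls 1, 2+4 and 3.

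Striatal neuron markers showed the same sample standing apart. Their mean log2 signal over 19 genes was 14.39, 14.38, 12.28 and 14.35 in NAc RCF samples, against 12.28, 13.84, 14.44 and 14.34 in NAc controls. It was 11.25, 11.12 and 11.15 in mPFC RCF samples, against 12.78, 11.22 and 11.22 in mPFC controls. NAc RCF 3 and NAc control 1 were lower than the other 6 NAc samples and also lower than mPFC control 1, which was the highest of the mPFC samples. By this measure alone the region labels of these 3 samples are not told apart, while the other NAc samples all lay above the other mPFC samples. The striatal mean minus the mean of cortical excitatory markers did separate them. It was 3.22 in NAc RCF 3 and 3.09 in NAc control 1, against 1.5 in mPFC control 1. The median region difference of the striatal genes was 0.59, with 18 of 19 above 0, and 0.43 without the 2 control samples, with 17 of 19 above 0. None was at an unadjusted p under 0.05. Genes of septum and ventral forebrain, a neighbouring area, had a median of 0.48 with 6 of 6 above 0, and of 0.17 without those samples. Rgs9, a regulator of dopamine receptor signalling, had 1.54 ± 1.18, the receptor genes Adora2a and Drd1 had 1.36 ± 1.30 and 1.12 ± 0.93, and the small G protein gene Rasd2 had 0.80 ± 0.70. In the fit that left out the 2 control samples, Rgs9 had 0.70, Adora2a 0.64, Drd1 0.75 and Rasd2 0.48, and without mPFC control 1 alone they had 0.44, 0.25, 0.55 and 0.34.

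Cortical excitatory markers also leaned above 0, in 10 of 12 genes with a median of 0.30, and in 12 of 12 with a median of 0.38 without the 2 control samples. Their mean was 8.97, 9.73, 9.06 and 10.45 in NAc RCF samples, against 9.19, 8.95, 9.04 and 9.43 in NAc controls, with NAc RCF 4 the highest. In the mPFC it was 11.54, 11.44 and 11.28 in RCF samples, against 11.28, 11.52 and 11.41 in controls. The groups overlapped in both regions. Neurod2, a transcription factor of cortical neurons, had a region difference of 1.38 ± 1.17, Tbr1, that of deep-layer neurons, 0.88 ± 0.93, and Bhlhe22 0.97 ± 0.92. Without the 2 control samples these were 1.78, 1.00 and 1.12. Sample NAc RCF 4 was at 11.87, 12.64 and 9.0 for these genes, the highest of the NAc samples, and without it alone the region differences were 0.42, 0.28 and 0.15. The part of the dissection border in these values was not tested. With the striatal minus cortical score of each sample as a covariate, limma called 0 features.

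Immediate early genes, transcribed within minutes of neuronal activity, had region differences above 0 in 16 of 18 cases, with a median of 0.39. When the 2 control samples were left out, 14 of 18 were above 0, with a median of 0.32. The median response of the 18 genes was 0.34 in the NAc and -0.16 in the mPFC, where 5 of 18 were above 0. Without those samples it was 0.47 in the NAc and 0.16 in the mPFC, where 12 of 18 were above 0, so the sign of the mPFC median turned. Jun, a subunit of the AP-1 transcription factor, was 11.74, 12.06, 12.03 and 12.2 in NAc RCF samples, against 12.16, 11.81, 11.82 and 11.99 in NAc controls. In the mPFC Jun was 12.09, 11.92 and 12.05 in RCF samples, against 12.16, 12.51 and 12.29 in controls. The mPFC groups were apart and the NAc groups overlapped. Its region difference was 0.37 ± 0.18, and 0.46 without the 2 control samples, when it alone of the 18 reached an unadjusted p under 0.05 (0.0385 in limma).

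The nuclear receptor genes Nr4a2 and Nr4a1 had larger but less certain values, 1.44 ± 1.01 and 0.94 ± 0.71, and Klf4 had 0.38 ± 0.23. With both doubtful controls left out, Nr4a2 had 0.57, Nr4a1 0.95 and Klf4 0.14, and without mPFC control 1 alone Nr4a2 had 0.64 and Klf4 0.16. The mean log2 signal of the 18 immediate early genes was 10.81, 11.09, 9.79 and 10.92 in NAc RCF samples, against 10.36 ± 0.38 (SD, n = 4) in NAc controls. In the mPFC it was 11.06, 11.05 and 11.14 in RCF samples, against 11.83, 10.87 and 11.06 in controls. The groups overlapped, NAc RCF 3 being the lowest sample of all and mPFC control 1 the highest. Without mPFC control 1 the median was 0.16, and without NAc RCF 3 it was 0.71. Both samples also stood apart in the striatal markers, and what that contributes was not tested.

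**Figure D4:**
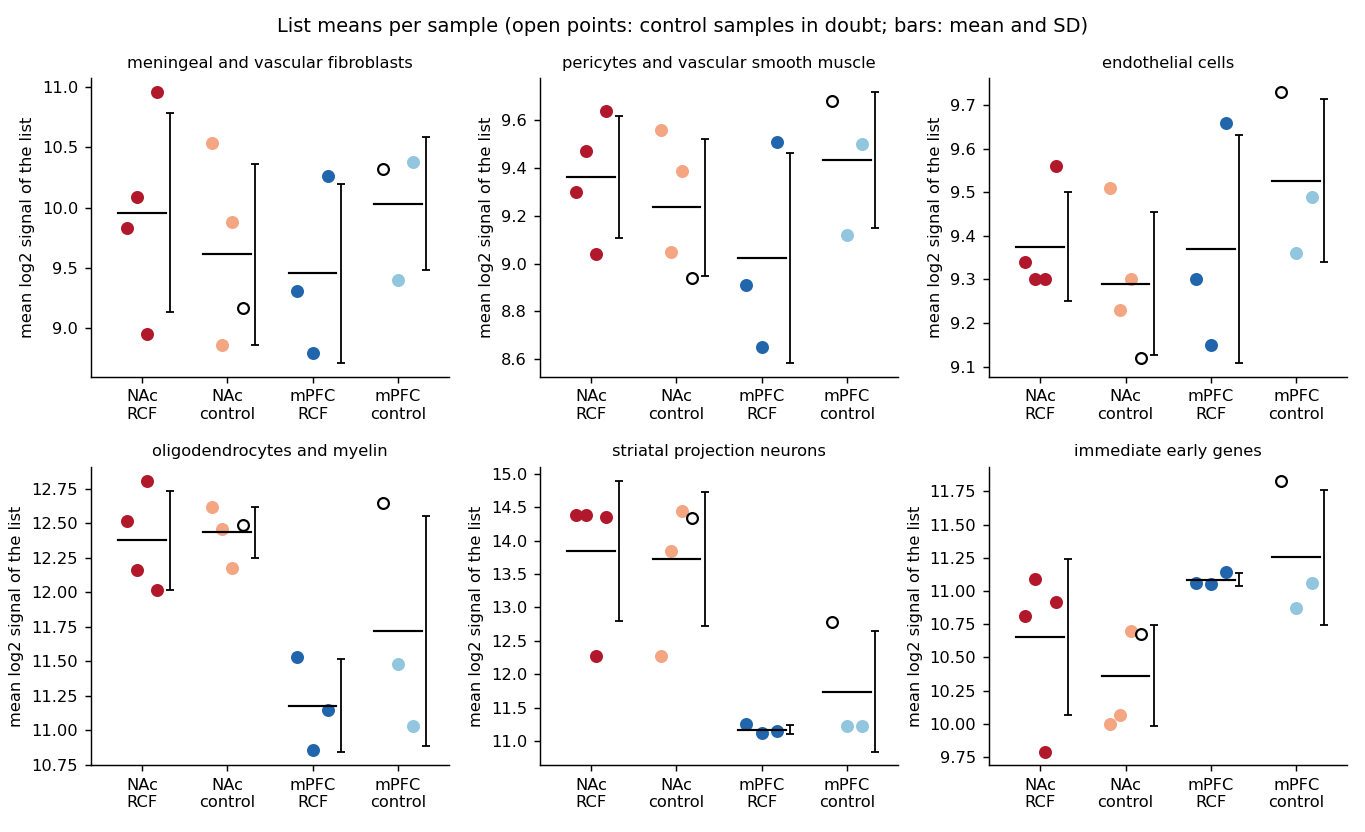
Mean log2 signal of 6 gene lists (vertical axes) in each NAc RCF, NAc control, mPFC RCF and mPFC control sample, with group means and SD; open points are NAc control 4 and mPFC control 1. The oligodendrocyte mean is 10.86 to 11.53 in mPFC RCF samples, against 12.65 in mPFC control 1, and the striatal means of NAc RCF 3 and NAc control 1 are both 12.28.

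The 9 measured genes of dopamine receptors, synthesis and transport had a median of 0.06, with 6 above 0, and of -0.18 without the 2 control samples. Among them Th, the rate-limiting enzyme of dopamine synthesis, had -0.63 ± 0.46, and the breakdown enzyme Maob had 0.28 ± 0.23, and without those samples they had -0.91 and 0.19. Th had -0.17 without mPFC RCF 4 alone, and Maob 0.11 without mPFC control 1 alone. Of 17 stress hormone and glucocorticoid target genes 9 lay above 0, with a median of 0.05, and without the 2 control samples 8 did, with a median of -0.04. The mineralocorticoid receptor gene Nr3c2 had 0.45 ± 0.30, the glucocorticoid-induced genes Klf9, Errfi1 and Tsc22d3 had 0.47 ± 0.34, 0.28 ± 0.15 and -0.40 ± 0.30. Without those samples Nr3c2 had 0.56, Klf9 0.42, Errfi1 0.33 and Tsc22d3 -0.60.

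Of 6 measured methyltransferases of histone H3 lysine 9, 2 lay above 0, with a median of -0.22, and of -0.06 without the 2 control samples. Suv39h2 and Ehmt1, both of which repress transcription through this mark, had -0.36 ± 0.24 and -0.30 ± 0.27, Prdm2 had -0.28 ± 0.35 and Setdb1 had 0.08 ± 0.18. In the fit that left out the 2 control samples, they had -0.19, -0.06, -0.09 and -0.06, and without mPFC control 1 alone -0.17, -0.07, -0.03 and -0.01. Cytosolic ribosomal protein genes had a median of -0.07 with 18 of 78 above 0, and subunits of oxidative phosphorylation one of -0.05 with 21 of 78 above 0. Without the 2 control samples these counts were 40 and 39 of 78. In these lists and in the dopamine and stress lists, no member was at an unadjusted p under 0.05.

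The 15 ionotropic glutamate receptor genes had a median of 0.01, the 7 metabotropic ones -0.03, the 12 GABA-A receptor subunits -0.01 and the 7 serotonin receptors 0.01. When the 2 control samples were left out, these medians were 0.04, 0.00, -0.01 and 0.04. Opioid peptides and receptors had a median of 0.18 over 8 genes, the endocannabinoid system one of 0.10 over 9 and the circadian clock one of -0.20 over 17. Without those samples they were 0.07, 0.08 and 0.00, with 9 of 17 clock genes above 0. None of these genes was at an unadjusted p under 0.05.

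The Xlr genes, named in the title of the series, encode nuclear proteins related to the synaptonemal complex, and several copies lie in tandem on the X chromosome. Xlr4a and Xlr4b are close copies, and their probes may read both, which was not tested. The stretch shown lies before their annotated starts, so it shows a likeness there and not what the probes read. Of 160 aligned bases 158 are identical (98.8%), and capitals mark the 2 that differ. Both are from RefSeq on GRCm38.p6, Xlr4a from chrX:73082515-73082674 on the minus strand and Xlr4b from chrX:73214173-73214332 on the plus strand, upstream of the annotated starts.
Xlr4a: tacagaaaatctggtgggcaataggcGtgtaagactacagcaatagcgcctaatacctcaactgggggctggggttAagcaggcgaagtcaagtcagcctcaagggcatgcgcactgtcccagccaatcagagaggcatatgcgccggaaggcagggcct
Xlr4b: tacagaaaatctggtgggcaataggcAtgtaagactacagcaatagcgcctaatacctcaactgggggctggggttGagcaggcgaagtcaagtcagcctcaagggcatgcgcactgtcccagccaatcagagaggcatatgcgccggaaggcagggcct

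Of 10 listed members the matrix held 3. Xlr4a was 7.4, 7.63, 7.17 and 6.59 in NAc RCF samples, against 6.71, 5.4, 4.69 and 7.16 in NAc controls. In the mPFC Xlr4a was 4.88, 7.7 and 6.95 in RCF samples, against 6.62, 4.05 and 4.84 in controls. The groups overlapped in both regions, with RCF samples mostly higher. The Xlr4a response was 1.21 ± 0.67 in the NAc and 1.34 ± 0.78 in the mPFC, so its region difference was -0.13 ± 1.03, with a 95% interval of -2.35 to 2.08. With both doubtful controls left out, the response was 1.60 ± 0.61 in the NAc (unadjusted p = 0.0228 in limma) and 2.06 ± 0.73 in the mPFC (0.0154), in both regions higher than with all samples. The mPFC controls left in that fit were dim, at 4.05 and 4.84, and so was NAc control 3, at 4.69.

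Xlr4b, the near-identical copy, was 7.85, 8.0, 7.55 and 7.22 in NAc RCF samples, against 7.2, 6.2, 5.51 and 7.41 in NAc controls. In the mPFC it was 5.68, 8.39 and 6.47 in RCF samples, against 6.59, 4.97 and 5.27 in controls. Again both regions had overlapping groups. Its responses were 1.07 ± 0.55 in the NAc and 1.24 ± 0.64 in the mPFC, a region difference of -0.16 ± 0.84. In the fit that left out the 2 control samples, they were 1.35 ± 0.54 (unadjusted p = 0.029 in limma) and 1.73 ± 0.65 (0.0212). In neither region did limma call a feature in that fit, whose mPFC controls of Xlr4b, 4.97 and 5.27, were also dim.

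Xlr3b, a related member and an imprinted gene, was 9.3, 9.43, 9.45 and 9.23 in NAc RCF samples, against 9.27, 8.64, 7.99 and 8.87 in NAc controls. In the mPFC Xlr3b was 8.41, 9.94 and 8.11 in RCF samples, against 9.22, 7.47 and 8.35 in controls. The NAc RCF samples were alike and mostly above the controls, and the mPFC groups overlapped widely. Its region difference was 0.19 ± 0.62, and -0.19 without the 2 control samples. Without them Xlr4a had -0.47 and Xlr4b -0.38, and leaving out single samples moved each of the 3 genes to either side of 0. A difference between the regions of either sign, as large as the responses themselves, lies within the interval of each gene.

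**Figure D5:**
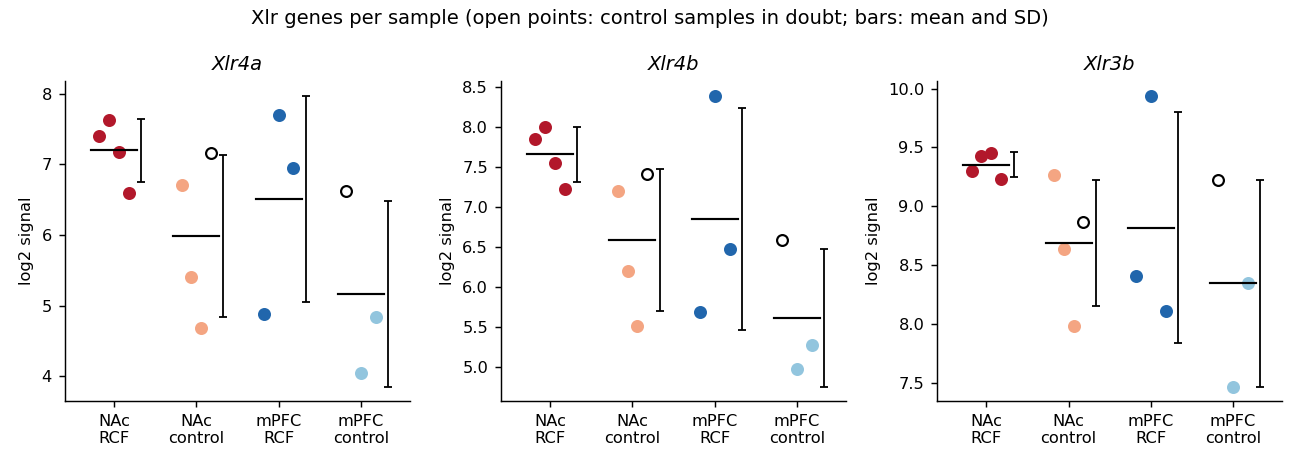
Log2 signal of Xlr4a, Xlr4b and Xlr3b in NAc RCF, NAc control, mPFC RCF and mPFC control samples, with group means and SD; open points are NAc control 4 and mPFC control 1. For Xlr4a the 4 NAc RCF samples lie between 6.59 and 7.63 and the 3 mPFC RCF samples between 4.88 and 7.7, and both overlap their controls.

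Whether the region difference itself differed between the strains was tested over all 8 groups, the C57 NAc controls there being 2 pairs of near-duplicate arrays. The C57 groups hold arrays whose markers go against their tissue label, so they were kept out of the main fit. The C57 values below are in doubt for that reason. Limma called 0 features (0.0%), with 530 at an unadjusted p under 0.05 (2.08%), and 581 without the 2 DBA control samples. The genes below were chosen for their values in the DBA arrays, which are part of this contrast, so their unadjusted p are too small and are given only to describe them. They are a part of the named genes and lean to those with a small p of this contrast. Ceacam2 had a region difference of 1.32 in DBA mice and 0.11 in C57 mice (unadjusted p = 0.0202 in limma for the difference between the strains). Cldn5 had 0.72 in DBA and -0.59 in C57 mice (unadjusted p = 0.0119), Ino80b 0.65 and -0.60 (0.00088), and Cx3cr1 0.51 and -0.05 (0.0349). Cd93 had 0.71 in DBA and 0.16 in C57 mice, with an unadjusted p of 0.105 in limma. The fibroblast gene Col1a1 had 1.60 in DBA and 1.44 in C57 mice. Cpd had 0.42 and 0.37 (unadjusted p = 0.806 in limma), and Htatsf1 0.48 and 0.28 (0.549).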

How the data were processed

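RNA of the NAc and mPFC was hybridised in 1 colour (Cy3) to Agilent arrays. Per the file headers, the deposited scanner files hold an intensity per spot, written by Feature Extraction 10.7.3.1 on a design annotated on mm9, with marks for signal above background. The deposited matrix holds log2 values of 30067 probes. Each matrix column was compared with the scanner files and equals the log2 processed signal of 1 file plus a constant. For 29 of the 31 samples, all 16 DBA samples among them, that file is listed with another sample, so samples were taken from the matrix titles, and the listing was run as an alternative. Of the matrix probes 30060 had signal marked above background on every array of the 31, so genes detected in only some groups are not covered. The submitters' processing notes name limma without its use.

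Probes were named through RefSeq accessions, and the brightest probe of a symbol over the DBA arrays stood for it, leaving 25536 features, 13724 of them named genes. mPFC RCF 1 and 3 (SD of their difference over probes 0.175) and mPFC control 2 and 4 (0.168) differed least (0.219 to 0.71 in the other pairs) and were counted as 1 sample each. Limma 3.58.1 in R 4.3.3 fitted 4 group means with an intensity trend. P-values were adjusted by Benjamini-Hochberg across features with 0.05 as the threshold, and intervals are at 95%. The fit was tested on simulated normal data with region differences of 1 or 2 added to some features. Limma called 30% of those of size 1 and 79% of those of size 2 at an adjusted p under 0.05. Simulated features were independent, with the same spread in every sample. The real samples differed in spread, with an SD from the group mean of 0.129 in mPFC RCF 1+3 and 0.418 in NAc RCF 4. These 2 percentages therefore need not hold for the real data. Python 3.11.15, numpy 2.4.6, pandas 2.3.3, scipy 1.17.1 and matplotlib 3.10.9 did the rest.

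The text names, among named genes, the 12 with the smallest unadjusted p in each direction, the 6 in each direction without the 2 control samples, the Xlr members measured, and up to 4 genes of a list with the smallest p, plus list members at an unadjusted p under 0.05. Members, lists and this rule were chosen with earlier results of these data known. Alternatives were other samples, scalings, filters, probe choices, weights, covariates and blocks. The normexp alternative, planned on mean signals, used median signals, which the files hold. Some genes that this rule names are not reported here.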

Additional observations from a re-analysis of the deposited data

Results flagged for a closer look

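In groups of 4 samples, a sample was singled out when its gap to the nearest other exceeded 0.829 of the group's range, which chance alone gives in about 1 in 20 groups, and 5 of 102 groups were singled out. Htatsf1 in NAc control 4 was 12.92, with the other 3 controls at 12.38 to 12.46. Maml2 in the same sample was 7.27, with the others at 6.66 to 6.70. Snd1 in NAc RCF 4 was 8.51, with the others at 9.23 to 9.35. The endothelial mean in NAc RCF 4 was 9.56, with the others at 9.30 to 9.34. The striatal mean in NAc RCF 3 was 12.28, with the others at 14.35 to 14.39.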

How the results depend on the processing

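The region difference had 0 called features in limma under all 29 alternatives. Its features at an unadjusted p under 0.05 were 252 of 25536 (0.987%) in the reported fit. They were 442 (1.73%) with no arrays averaged, 396 (1.55%) with quantile normalization and 980 (3.84%) with array weights. Without the dimmest features they were 160 of 19152 (0.835%). Over all detected probes they were 538 of 37550 (1.43%), and with the scanner files as listed 874 of 37550 (2.33%). In the NAc, limma called 1 feature, Sprr4, named here after its value was seen, with no arrays averaged and again with quantile normalization, and 4757 with the files as listed, which called 4960 in the mPFC. At an unadjusted p under 0.05 the NAc gave 569 (2.23%) with no arrays averaged and 870 (3.41%) with weights. It gave 198 of 19152 (1.03%) without the dimmest features. Over all detected probes it gave 908 of 37550 (2.42%), and with the files as listed 10073 (26.8%). The mPFC gave 864 (3.38%) with no arrays averaged, 3047 (11.9%) with weights, 712 (1.9%) over all detected probes and 11026 (29.4%) as listed. Under the listing, every file named as a DBA control equals a column titled C57 NAc, and every file named as DBA RCF one titled DBA NAc. By the column titles, the 4757 and 4960 features thus come from comparing DBA with C57 samples of the NAc, not RCF with control. The cause of the other shifts was not tested.

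The labels do not say whether replicate numbers pair samples. Deviations of same-numbered samples from their group means correlated at -0.248 to 0.224, over 0.1 in 2 of 8 pairs. NAc control 4 and mPFC control 1, which have markers that go against their labels, correlated at 0.391. Such samples weigh on these correlations, so they cannot decide whether the regions share mice. With the number as a replicate block the region difference had 325 and the mPFC 714 features at an unadjusted p under 0.05, and with number and treatment as a replicate block the region difference had 384.

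Leaving out 1 sample gave 111 (without mPFC RCF 2) to 565 (without NAc RCF 3) features at an unadjusted p under 0.05 for the region difference, 200 (without NAc RCF 4) to 1747 (without NAc RCF 3) for the NAc and 173 (without mPFC RCF 2) to 885 (without mPFC control 2+4) for the mPFC, with 0 called each time. List medians then ranged from 0.03 to 0.99 for oligodendrocytes, -0.38 to 0.84 for choroid plexus, 0.06 to 0.25 for microglia, 0.16 to 0.71 for immediate early genes, 0.13 to 1.11 for striatal neurons, 0.11 to 0.42 for cortical neurons, 0.05 to 0.31 for endothelial cells, 0.33 to 0.75 for pericytes, 0.59 to 1.38 for fibroblasts, -0.10 to 0.26 for dopamine genes, -0.06 to 0.18 for stress genes, -0.36 to -0.02 for histone H3 lysine 9 methyltransferases, -0.20 to 0.06 for ribosomal proteins and -0.14 to 0.06 for oxidative phosphorylation. Leaving out the 2 control samples gave -0.02 for oligodendrocytes, -0.24 for choroid plexus and -0.18 for dopamine genes.

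Of 2034 values of 82 named genes under the alternatives, 2007 kept their direction and 27 did not, and the 33 genes named by p over all genes kept theirs throughout. The sign turned without the 2 control samples for Xlr3b (-0.19), Ccdc153 (-0.24) and Setdb1 (-0.06), and with array weights for Xlr3b (-0.09), Xlr4a (0.34), Xlr4b (0.02), Aif1 (-0.05), Prdm2 (0.04) and Setdb1 (-0.05). Leaving out 1 sample gave -0.25 to 0.74 for Xlr3b, -0.95 to 0.46 for Xlr4a, -0.75 to 0.61 for Xlr4b, -0.38 to 1.60 for Ccdc153 and -0.01 to 0.14 for Setdb1.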
